A study of Homo sapiens with 12 samples.

Results

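10 genes of SMAD signalling were followed in WI-38 cells, a line of normal human lung fibroblasts, with and without TGF-β. They were the receptor-regulated SMADs SMAD1, SMAD2, SMAD3 and SMAD5, the common partner SMAD4, the inhibitory SMADs SMAD6 and SMAD7, and the nuclear repressors SKI, SKIL and TGIF1. They were taken by symbol, 10 of the 25702 genes in the count table. RNA of whole flasks had been sequenced in 4 conditions of 3 flasks each. D1 flasks were untreated and D1+ TGF-β flasks had received 2 ng/mL TGF-β for 1 day, both at passages 2 to 3. D20 flasks were untreated and D20+ TGF-β flasks had received TGF-β for 20 days, both at passages 5 to 6, so that day and passage cannot be told apart. The methods of the study state that the D20 flasks were seeded from 1 untreated flask and the D20+ TGF-β flasks from 1 treated flask, and that the 3 flasks of a condition were picked for the amount and quality of their RNA. The p-values therefore measure the spread between sister flasks. In RNA of whole flasks, fewer cells that carry a transcript and less of it per cell cannot be told apart.

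TGF-β binds a pair of receptor kinases that phosphorylate SMAD2 and SMAD3, whereas bone morphogenetic proteins (BMPs) act through SMAD1 and SMAD5. The phosphorylated SMADs join SMAD4, enter the nucleus and bind DNA at short elements such as CAGAC. SMAD7 and SMAD6 sit at the receptors and block this step, SMAD7 for TGF-β and BMP signals and SMAD6 mainly for BMP signals. SKI, SKIL (also called SnoN) and TGIF1 hold SMAD complexes at DNA in a repressed state by recruiting corepressors. SMAD7 and SKIL are known as direct targets of TGF-β in many cell types and so form negative feedback. Phosphorylation and protein levels were not measured by this assay, which counts transcripts only.

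Library totals ranged from 8674488 to 18286197 counts. A pair of libraries stood apart from their companions. In flask 2 of D1, 110 of the 9490 tested genes lay more than 1 log2 unit from the mean of its companion flasks. In flask 3 of D20+ TGF-β 116 did, against 0 to 17 in the other libraries. Where leaving out either of them changed a call of the 10 genes, the value without it is given. All 7 fibroblast markers and all 4 myofibroblast markers passed the filter on low counts, and the summed level of the myofibroblast markers was 992 to 1665 cpm (counts of a gene relative to those of all tested genes in its library) at D1, 3019 to 3373 at D1+ TGF-β, 1671 to 1720 at D20 and 3644 to 4479 at D20+ TGF-β. Gene by gene, all 4 rose in D1+ TGF-β vs D1, whereas in D20+ TGF-β vs D20 1 rose, 1 fell and 2 were not called, with a median log2 fold change of 0.10. ACTA2, the smooth muscle actin of myofibroblasts, had a log2 fold change of 0.13 there (edgeR adjusted p = 0.554). None of the 5 epithelial, 4 endothelial and 4 immune markers passed the filter. Their summed levels were at most 0.596 cpm for the epithelial, 2.63 cpm for the endothelial and 6.36 cpm for the immune markers, the last in D20 flasks and at most 0.629 cpm elsewhere. The summed level of 10 proliferation genes was 935 to 1420 cpm at D1, 1018 to 1104 at D1+ TGF-β, 211 to 248 at D20 and 396 to 599 at D20+ TGF-β. The part of proliferation in the values below was not tested.

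Cpm are scaled by TMM factors (a correction for differences in library composition). Levels of different genes were compared as cpm per kb of the Ensembl canonical transcript. SMAD2 was left out of that comparison because its listed transcript, of 34626 bases, is mostly a long 3′ end that the annotation used for counting may not hold. At D1, SMAD3 had the highest level, 50.9 ± 9.58 cpm per kb (SD, n = 3). SKI followed with 17.6 ± 2.30 and SMAD5 with 16.4 ± 2.23, which did not differ beyond their spread. TGIF1 had 11.7 ± 2.20, SMAD1 9.15 ± 2.51 and SMAD4 8.12 ± 1.04 cpm per kb, again within the spread of their neighbours. SMAD7 and SKIL, at 2.94 ± 1.83 and 2.66 ± 0.869, were alike, and SMAD6 was lowest with 0.775 ± 0.132 cpm per kb. At D20+ TGF-β the means of the upper genes lay closer together than at D1. SMAD3 had 21.5 ± 5.43, SMAD5 19.01 ± 0.435, TGIF1 18.8 ± 1.10 and SKI 17.7 ± 1.26 cpm per kb. These 4 means did not differ beyond the spread of SMAD3, but that spread came from flask 3, which stood apart. SMAD3 had 24.8, 24.3 and 15.2 cpm per kb in flasks 1, 2 and 3. In flasks 1 and 2 it was above every flask of SMAD5, TGIF1 and SKI, of which the highest had 19.8 (TGIF1). Over all tested genes, and without a correction for length, SMAD3 was at percentile 92.0 of the mean log2 cpm and SMAD7 at percentile 4.29.

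**Figure D1:**
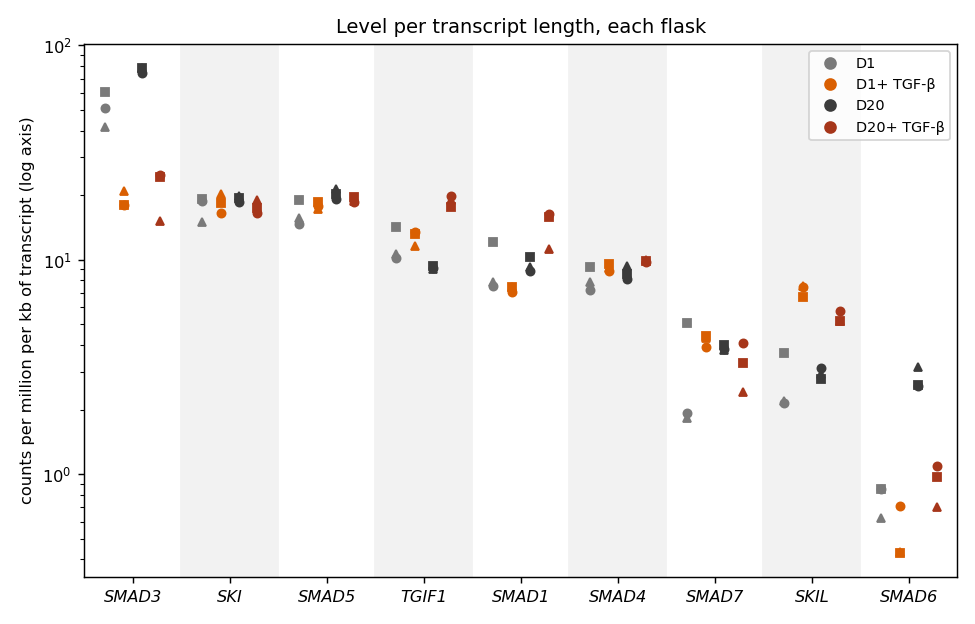
Level of 9 genes in each of the 12 flasks, in cpm per kb of canonical transcript on a log axis, coloured by condition (circle, square and triangle for flasks 1, 2 and 3). SMAD3 is highest in untreated flasks at a mean of 50.9 at D1, and SMAD6 is lowest. In the D20+ TGF-β flasks SMAD5, TGIF1 and SKI lie close together, with SMAD3 above them in flasks 1 and 2 and below them in flask 3.

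Genes that reached 10 cpm in 6 or more libraries entered edgeR's quasi-likelihood test and were called at a Benjamini-Hochberg adjusted p under 0.01. Of the 10 genes, 9 passed this filter. SMAD6 did not, having reached 10 cpm in 1 library, and its tests are from a fit with a looser filter (edgeR's filterByExpr, 13768 genes). In D1+ TGF-β vs D1, 2 of the 9 were called, where 13.4% of all tested genes were called. 1 was higher, as were 6.89% of all, and 1 lower, as were 6.5% of all. In D20+ TGF-β vs D20, 4 of the 9 were called, against 27.5% of all. 3 were higher (12.8% of all) and 1 lower (14.7%). Between the treated flasks of both days (D20+ TGF-β against D1+ TGF-β) it was 2 of the 9, against 34.8%, both higher (17.2%; 17.7% of all were lower). In D20 vs D1 it was 3 of the 9, against 36.4%, all higher (18.9%; 17.6% of all were lower). For the difference of the responses at D20 and D1 it was 1 of the 9, against 10.4%, and it was higher (4.51%, with 5.87% of all lower). Each count differs by less than 2 genes from what the share of all genes would give for 9. The flasks of the groups did not overlap for 4 of the 9 genes in D1+ TGF-β vs D1 (36.4% of all genes), 5 in D20+ TGF-β vs D20 (58.3%), 6 between the treated flasks (63.2%) and 4 in D20 vs D1 (55.6%). The comparisons share flasks and so are not independent of each other. SMAD4, SMAD7 and SKI were called in none of them with edgeR on the 12 libraries.

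**Figure D2:**
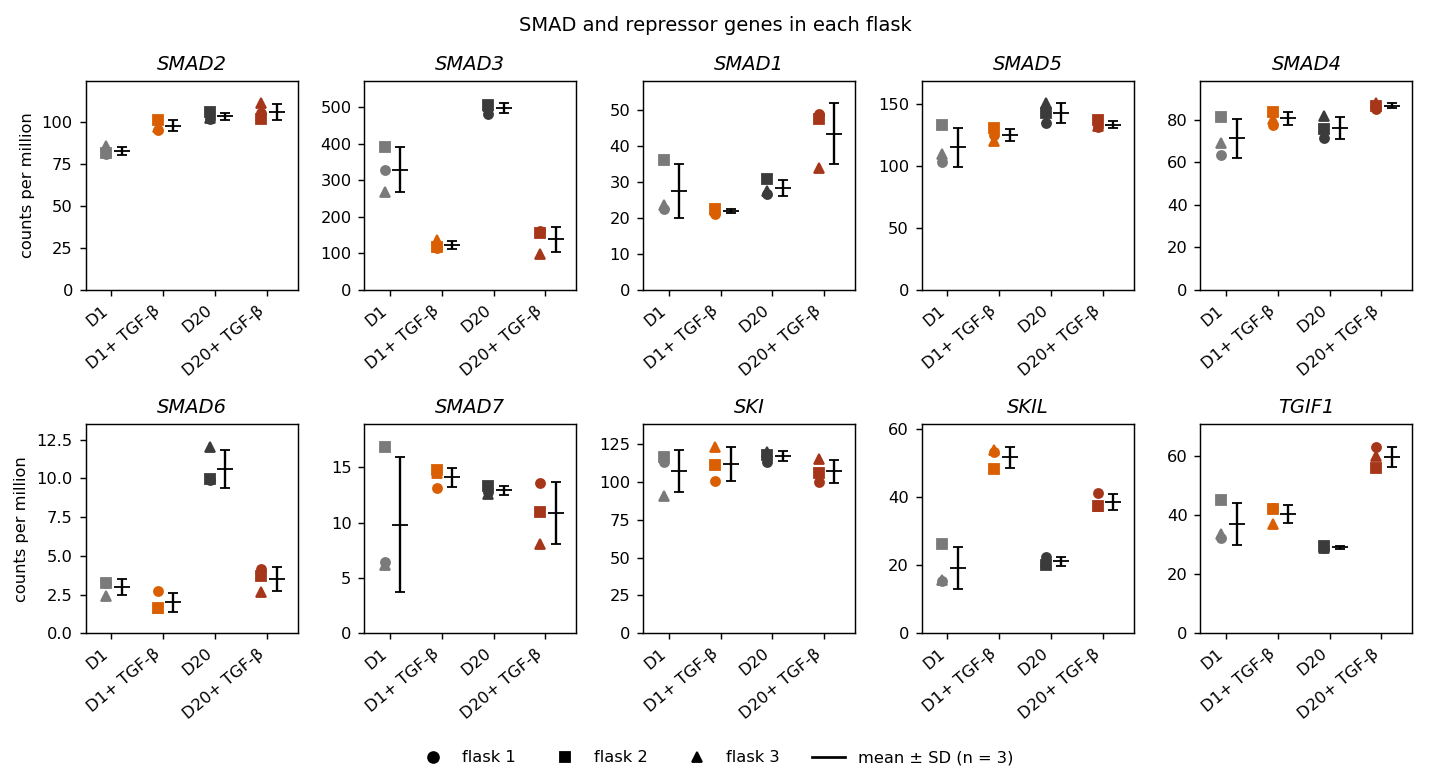
Level of the 10 genes in each flask, in cpm, by condition (circle, square and triangle for flasks 1, 2 and 3), with the mean and SD of 3 flasks beside them. SMAD3 is lower and SKIL higher in every TGF-β flask of either day, TGIF1 is highest at D20+ TGF-β, SMAD6 at D20, and D1 flask 2 lies apart for SMAD7.

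SMAD3 was the member that fell with TGF-β on both days. SMAD3 (Entrez 4088, GRCh37 chr15:67356101-67487511, plus strand) carries the TGF-β signal to DNA directly. Its levels were 328, 391 and 268 cpm in the D1 flasks and 116, 117 and 136 cpm in the D1+ TGF-β flasks. They were 482, 505 and 505 cpm at D20 and 161, 157 and 98.2 cpm at D20+ TGF-β. All treated flasks were lower than every untreated flask, whichever the day. The log2 fold change was −1.43 at D1 (standard error 0.17, adjusted p = 4.70e-05), 2.69-fold lower, and −1.84 at D20 (standard error 0.17, adjusted p = 2.22e-06), 3.58-fold lower. These calls held under each of the 23 alternative settings, with log2 fold changes from −1.55 to −1.27 at D1 and from −1.95 to −1.63 at D20. The responses at the 2 days differed by −0.41 (95% interval −0.92 to 0.09, adjusted p = 0.225), so that no difference between them was shown. Without TGF-β, SMAD3 was higher at D20 than at D1 by 0.59 on the log2 scale (standard error 0.16, adjusted p = 0.00789), with all D20 flasks above all D1 flasks. That call did not hold when D1 flask 1 or 3, any 1 of the D1+ TGF-β flasks or any 1 of the D20 flasks was left out (adjusted p 0.0107 to 0.0404), nor with limma on the deposited values (0.0109) or without composition factors (0.0155). Between D1+ TGF-β and D20+ TGF-β the difference was 0.18 (adjusted p = 0.387). D20+ TGF-β flask 3 was the lowest of all 12 libraries, and without it the difference was 0.38 (adjusted p = 0.0234).

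SMAD2 (Entrez 4087, GRCh37 chr18:45335328-45457517, minus strand), the other SMAD that TGF-β receptors phosphorylate, varied little. Its levels were 81.1, 82.0 and 85.9 cpm at D1, 95.5, 102 and 97.2 at D1+ TGF-β, 102, 106 and 103 at D20 and 106, 102 and 111 at D20+ TGF-β. The D1 flasks lay below all others. The log2 fold change in D1+ TGF-β vs D1 was 0.24 (standard error 0.06) with an adjusted p of 0.0105, which narrowly missed the threshold. It was called without D1 flask 3 (adjusted p = 0.00967), without D20+ TGF-β flask 3 (0.00942), with DESeq2 (0.00404), with RLE factors (0.00954) and with lanes as samples. D20 vs D1 gave 0.32 (standard error 0.06, adjusted p = 6.47e-04), a call lost only without a gene filter (adjusted p = 0.0227) among the 23 alternatives. In D20+ TGF-β vs D20 it was 0.04 (95% interval −0.09 to 0.17).

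The ratio of SMAD3 to SMAD2 counts in a flask does not depend on scaling between libraries. It was 4.05, 4.78 and 3.12 at D1, 1.21, 1.15 and 1.40 at D1+ TGF-β, 4.72, 4.77 and 4.91 at D20 and 1.52, 1.54 and 0.882 at D20+ TGF-β. As counts of genes of unequal length these are no ratios of molecules, but their change between flasks is free of length. The ranges with and without TGF-β did not overlap on either day. An exact permutation test of 3 against 3 flasks cannot go below p = 0.1, and none was run on the ratios.

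**Figure D3:**
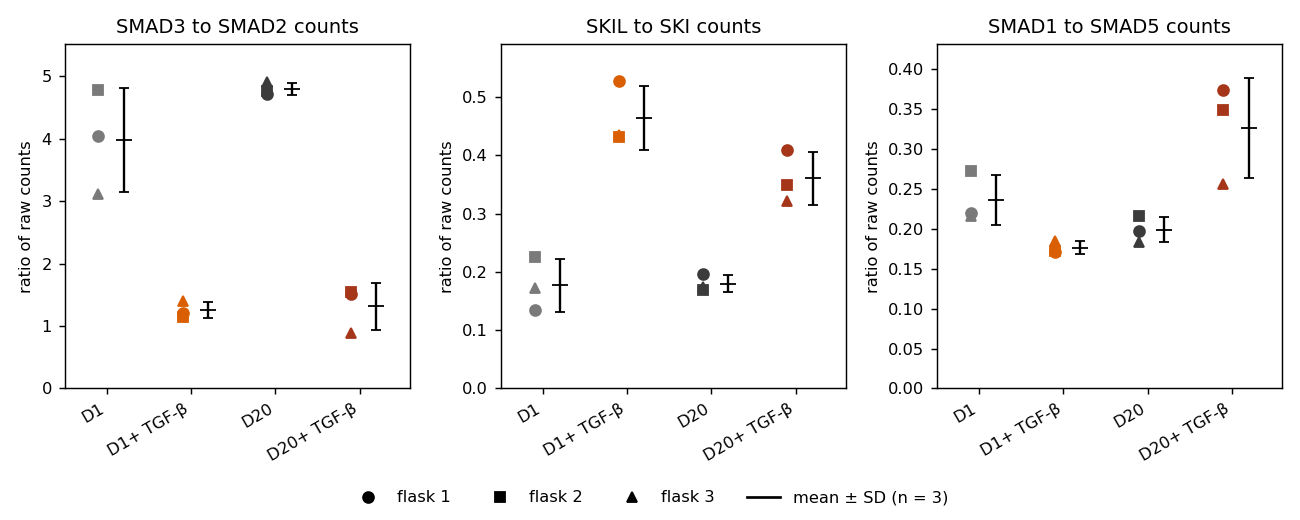
Ratio of the raw counts of SMAD3 to SMAD2, of SKIL to SKI and of SMAD1 to SMAD5 in each flask, by condition, on linear axes from 0, with the mean and SD of 3 flasks. The SMAD3 to SMAD2 ratio is 3.12 to 4.91 without TGF-β and 0.882 to 1.54 with it, the SKIL to SKI ratio is higher with TGF-β, and the SMAD1 to SMAD5 ratio is highest at D20+ TGF-β.

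SMAD1 (Entrez 4086, GRCh37 chr4:146402346-146480328, plus strand), a carrier of BMP signals, was higher in the D20+ TGF-β flasks than in the D20 and the D1+ TGF-β flasks. Its levels were 22.6, 36.1 and 23.7 cpm at D1, 21.3, 22.5 and 22.3 at D1+ TGF-β, 26.6, 30.7 and 27.6 at D20 and 49.0, 47.7 and 33.8 at D20+ TGF-β. D1 flask 2 was above its companions and D20+ TGF-β flask 3 below its own, so that these libraries overlapped. The log2 fold change was 0.62 in D20+ TGF-β vs D20 (standard error 0.17, adjusted p = 0.00865) and 0.99 between the treated flasks of D20 and D1 (standard error 0.17, adjusted p = 4.05e-04). The latter held under all 23 alternatives. The former was lost when any 1 of the D1+ TGF-β or D20 flasks or flask 1 or 2 of D20+ TGF-β was left out (adjusted p 0.0136 to 0.0403) and with limma on the deposited values (0.0109), while without D20+ TGF-β flask 3 it was 0.77 (adjusted p = 0.00131). At D1 the response was −0.33 (adjusted p = 0.193), and −0.06 without D1 flask 2. The responses differed by 0.95 (standard error 0.24, adjusted p = 0.0134), which missed the threshold. The difference was 1.07 without D1 flask 1 (adjusted p = 0.00873), 1.10 without D20+ TGF-β flask 3 (adjusted p = 0.00239) and 0.70 without D1 flask 2 (0.01002). SMAD1-AS1 and SMAD1-AS2 lie on the opposite strand, and whether strand was used in counting is not given in the sources used here.

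SMAD5 (Entrez 4090, GRCh37 chr5:135468534-135524435, plus strand), the other BMP carrier measured here, had 103, 133 and 109 cpm at D1, 125, 130.2 and 120.3 at D1+ TGF-β, 135, 143 and 150.3 at D20 and 131, 137 and 132 at D20+ TGF-β. The treated and untreated flasks overlapped on both days. D20 vs D1 gave 0.31 (standard error 0.09, adjusted p = 0.00960), with all D20 flasks higher, but D1 flask 2 at 133 cpm lay close to the lowest of them at 135. Without that flask the difference was 0.41 (adjusted p = 1.83e-04). This call was lost in 16 of the 23 alternatives, among them leaving out D1 flask 1 or 3, any D1+ TGF-β flask, any D20 flask or flask 1 or 2 of D20+ TGF-β (adjusted p 0.0122 to 0.0485). SMAD5-AS1 lies on its opposite strand. The ratio of SMAD1 to SMAD5 counts was 0.170 to 0.185 at D1+ TGF-β and 0.256 to 0.374 at D20+ TGF-β, without overlap.

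SMAD4 (Entrez 4089, GRCh37 chr18:48554898-48611415, plus strand), the partner that all receptor-regulated SMADs share, was between 63.2 and 87.7 cpm in all 12 flasks. The log2 fold change with TGF-β was 0.18 on each day, with 95% intervals of −0.01 to 0.36 at D1 and −0.00435 to 0.36 at D20. The flasks overlapped at D1, while at D20 the treated flasks (85.3 to 87.7 cpm) lay above the untreated ones (71.4 to 81.8 cpm). Without D1 flask 2, which had 81.2 cpm against 63.2 and 69.2 in its companions, the D1 difference was 0.29 and was called (adjusted p = 0.00784).

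Among the inhibitory SMADs, SMAD6 showed the widest range. SMAD6 (Entrez 4091, GRCh37 chr15:66994574-67075187, plus strand) was covered by only 14 to 197 counts per library. Its levels were 3.26, 3.25 and 2.38 cpm at D1, 2.72, 1.64 and 1.66 at D1+ TGF-β, 9.89, 9.94 and 12.1 at D20 and 4.17, 3.70 and 2.68 at D20+ TGF-β. The D20 flasks lay above all others. With the looser filter it rose by 1.80 on the log2 scale in D20 vs D1 (standard error 0.20, adjusted p = 5.01e-06) and was lower by −1.58 in D20+ TGF-β vs D20 (standard error 0.19, adjusted p = 1.95e-05). The D1 response was −0.61 (standard error 0.25, adjusted p = 0.0971) and the difference of the responses −0.96 (adjusted p = 0.0515). Without D1 flask 2, D20 vs D1 was 1.88, and without D20+ TGF-β flask 3 the D20 response was −1.43, both still called. The treated flasks of D20 and D1 differed by 0.83 (adjusted p = 0.0120), which was called without D1 flask 2 (0.86, adjusted p = 0.00911), without D1+ TGF-β flask 1 (1.07, adjusted p = 0.00556), without D20+ TGF-β flask 3 (0.99, adjusted p = 0.00387) and with no gene filter (0.83, adjusted p = 0.00917).

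SMAD7 (Entrez 4092, GRCh37 chr18:46446223-46477335, minus strand), the inhibitor of TGF-β receptor signalling, was not called. In the comparisons that use the D1 flasks, 1 library decided this. Its levels were 6.44, 16.9 and 6.13 cpm at D1, 13.1, 14.7 and 14.5 at D1+ TGF-β, 12.8, 13.4 and 12.6 at D20 and 13.6, 10.99 and 8.03 at D20+ TGF-β. D1 flask 2 was the highest of all 12 libraries, and the other flasks of D1 were the lowest. Lane values, which were not scaled by TMM factors, were 15.2 to 20.4 cpm in the 4 lanes of that library. The lanes of its companions gave 5.29 to 8.996 and 4.09 to 7.72, so that no lane alone carried the value. The D1 response was 0.49 with a 95% interval of −0.16 to 1.14 (adjusted p = 0.255). Without D1 flask 2 it was 1.18 (adjusted p = 3.19e-04), and the difference of D20 vs D1 went from 0.36 (adjusted p = 0.335) to 1.02 (adjusted p = 3.42e-04). In D20+ TGF-β vs D20, the difference was −0.22 (95% interval −0.86 to 0.42), and −0.05 without D20+ TGF-β flask 3. The difference of the responses was −0.71 (adjusted p = 0.251), or −1.38 without D1 flask 2 (adjusted p = 7.40e-04).

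Other genes stood high in D1 flask 2 as well. SKIL had 26.2 cpm there against 15.3 and 15.7 in its companions, TGIF1 45.0 against 32.3 and 33.7, and SMAD1 36.1 against 22.6 and 23.7. The inhibitors of differentiation ID1 and ID3, known targets of BMP signals, had 62.1 and 87.5 cpm there, against 16.2 and 16.3 (ID1) and 11.9 and 12.6 (ID3) in the companions. ATOH8, which BMP signals also induce, had 15.01 cpm against 6.70 and 6.30. In D20+ TGF-β flask 3 some of these genes were low. ID1 had 8.70 cpm there against 26.7 and 21.2, ID3 11.3 against 35.7 and 24.1, ATOH8 3.82 against 9.89 and 11.1, SMAD1 33.8 against 49.0 and 47.7 and SMAD7 8.03 against 13.6 and 10.99. SKIL (37.2 against 41.1 and 37.2) and TGIF1 (60.1 against 62.9 and 56.0) were not low there. These genes were picked for this comparison after their values were seen, other than the members. SMAD6, at 3.25 cpm in D1 flask 2 against 3.26 and 2.38, did not stand apart there. Without both libraries, a setting chosen after seeing the data, 7 of the 9 tested members were called in D1+ TGF-β vs D1, with SMAD2, SMAD4, SMAD5, SMAD7 and TGIF1 (0.31, adjusted p = 0.00779) added to SMAD3 and SKIL. In that setting 27.8% of all tested genes were called in this comparison.

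**Figure D4:**
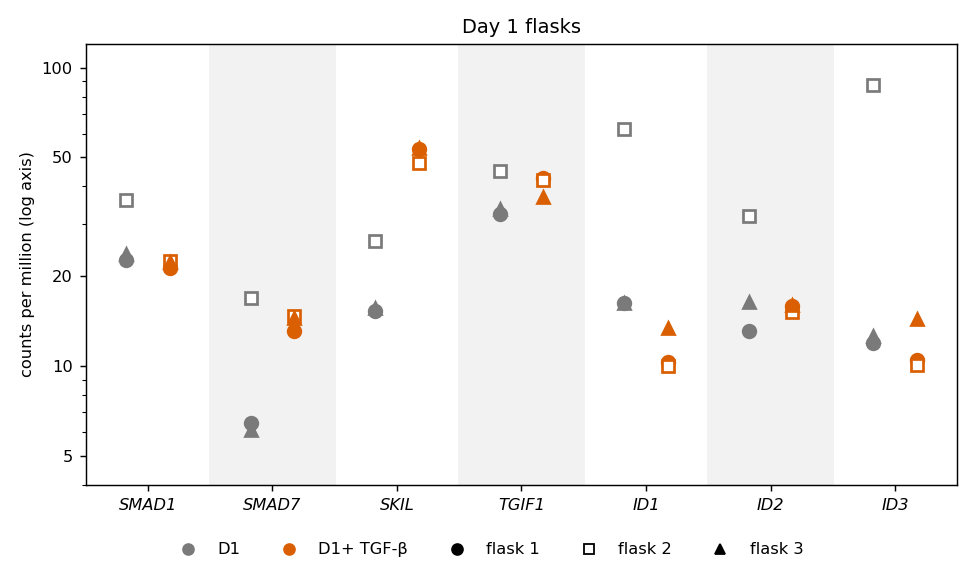
Level of 7 genes in the 3 D1 and 3 D1+ TGF-β flasks, in cpm on a log axis, with flask 2 of each condition as an open square. Flask 2 of D1 is above its companions for all 7 genes, by most for ID3 (87.5 against 11.9 and 12.6), while flask 2 of D1+ TGF-β lies with the others.

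SKIL was the repressor that rose with TGF-β on both days. SKIL (Entrez 6498, GRCh37 chr3:170075130-170114623, plus strand) encodes a corepressor of SMAD complexes whose protein is degraded when TGF-β signals. Its levels were 15.3, 26.2 and 15.7 cpm at D1, 53.2, 48.1 and 53.7 at D1+ TGF-β, 22.4, 20.0 and 20.9 at D20 and 41.1, 37.2 and 37.2 at D20+ TGF-β. Every treated flask was above every untreated one. The log2 fold change was 1.42 at D1 (standard error 0.16, adjusted p = 3.09e-05), 2.67-fold, and 0.87 at D20 (standard error 0.16, adjusted p = 6.43e-04), 1.83-fold. Both calls held in all 23 alternatives, from 1.28 to 1.74 at D1, the largest being without D1 flask 2, and from 0.83 to 0.93 at D20. The treated flasks of D20 were all lower than those of D1, by −0.42 (standard error 0.15, adjusted p = 0.0351), which was called without D1 flask 2 (adjusted p = 3.51e-04). The difference of the responses, −0.54 (adjusted p = 0.101), became −0.85 without that flask and was then called (adjusted p = 2.43e-04). Likewise D20 vs D1, 0.13 (adjusted p = 0.539), was 0.43 without it (adjusted p = 0.00215).

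SKI (Entrez 6497, GRCh37 chr1:2158827-2241652, plus strand), the close relative of SKIL, was between 91.2 and 124 cpm in all flasks, and its groups overlapped in each comparison. With TGF-β the log2 fold change was 0.06 (95% interval −0.15 to 0.28) at D1 and −0.13 (95% interval −0.34 to 0.08) at D20. The ratio of SKIL to SKI counts was 0.135, 0.225 and 0.172 at D1, 0.528, 0.432 and 0.434 at D1+ TGF-β, 0.197, 0.169 and 0.174 at D20 and 0.410, 0.349 and 0.322 at D20+ TGF-β. The treated and untreated flasks did not overlap on either day.

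TGIF1 was the only member whose difference of responses between the days was called with edgeR on the 12 libraries. That of SMAD1 was of like size, 0.95, and missed the threshold (adjusted p = 0.0134). TGIF1 (Entrez 7050, GRCh37 chr18:3411606-3459976, plus strand) encodes a homeobox repressor that competes with coactivators for SMAD complexes. Its levels were 32.3, 45.0 and 33.7 cpm at D1, 42.5, 41.9 and 36.97 at D1+ TGF-β, 28.9, 29.6 and 28.7 at D20 and 62.9, 56.0 and 60.1 at D20+ TGF-β. The groups overlapped at D1 and lay wide apart at D20. The log2 fold change was 0.13 at D1 (95% interval −0.12 to 0.37, adjusted p = 0.446) and 1.04 at D20 (standard error 0.11, adjusted p = 9.29e-06), 2.06-fold. Without D1 flask 2 the D1 response was 0.31 (adjusted p = 0.0122), which was not called either. The difference of the responses was 0.91 (standard error 0.16, adjusted p = 0.00149). It held in all 22 alternatives that gave a value, from 0.75 to 1.02, and was 0.75 without D1 flask 2 (adjusted p = 2.53e-04). TGIF1 was also higher in the treated flasks of D20 than in those of D1, by 0.56 (standard error 0.11, adjusted p = 0.00102). Without TGF-β it was lower in every D20 flask than in every D1 flask, by −0.35 (standard error 0.11, adjusted p = 0.0189), which did not pass, and was −0.20 without D1 flask 2 (adjusted p = 0.0561) and −0.44 without D1 flask 1 (adjusted p = 0.00661).

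**Figure D5:**
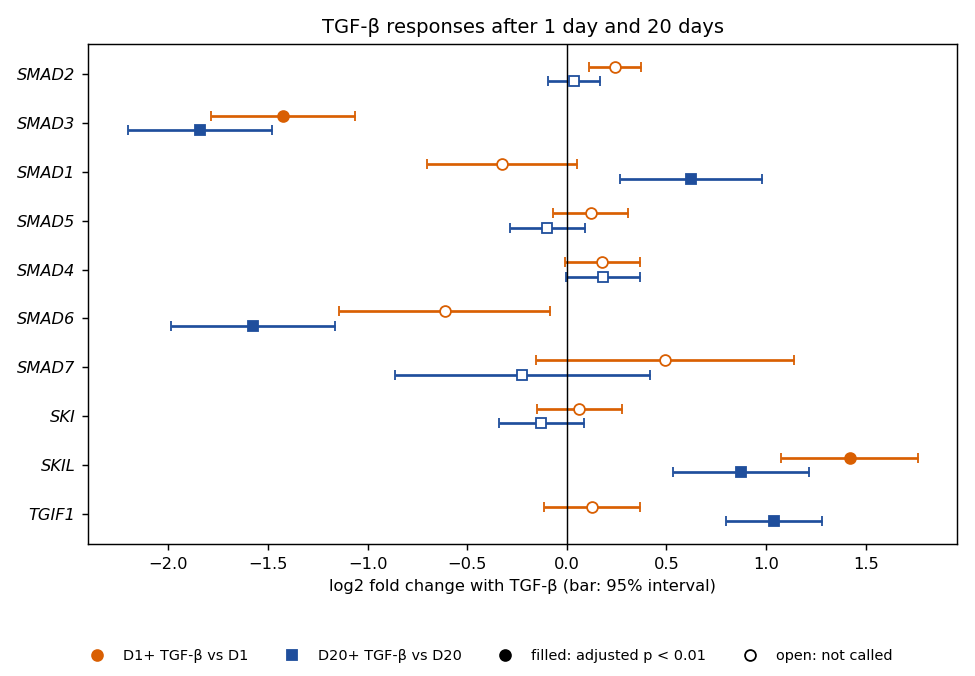
Log2 fold change with TGF-β after 1 day (circles) and 20 days (squares) for the 10 genes, with 95% intervals, filled where the adjusted p was under 0.01. SMAD3 is lower and SKIL higher on both days, whereas TGIF1, SMAD1 and SMAD6 are called at D20 only, and of these the difference between the days was called for TGIF1 (SMAD6 is from the fit with the looser filter).

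The promoters of these genes were searched for the SMAD element CAGAC and for the palindrome GTCTAGAC, on both strands (CAGAC reads GTCTG on the other strand and does not overlap the palindrome). Windows ran from 250 bases before to 50 after each RefSeq start (GRCh38.p14, a later build than that of the counts). Of the 10 genes, 9 had windows, 26 in all, and SKI was not matched. CAGAC was found in 12 of the 26 windows, 46.2%, and in 45.3% of the 35116 windows of all genes, so that the members did not stand out. The palindrome was found in 1 of the 26, that of SMAD6, and in 0.202% of all windows. TGIF1 had CAGAC in 5 of its 7 windows, SMAD3 in 3 of 5, SMAD7 in 2 of 3, SMAD1 in 1 of 5 and SKIL in its single one. Windows of neighbouring starts can overlap and then share a match. The match 60 bases before start 4 of TGIF1 is the same site as that 199 bases before start 5. SMAD2, SMAD4, SMAD5 and SMAD6 had none. The 4 stretches below show the 250 bases before the start for SKIL, which rose on both days, for SMAD7, for SMAD6, and for the SMAD3 start with the most matches, written 5′ to 3′ on the strand of the gene with the matches in capitals.
SKIL, chr3:170357465-170357714, plus strand: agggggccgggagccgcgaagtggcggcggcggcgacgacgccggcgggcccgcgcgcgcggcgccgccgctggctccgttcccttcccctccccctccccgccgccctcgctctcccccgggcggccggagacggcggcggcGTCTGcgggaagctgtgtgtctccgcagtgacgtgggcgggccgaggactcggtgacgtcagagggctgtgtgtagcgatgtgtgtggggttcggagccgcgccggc
SMAD7, start 1 of 3, chr18:48950966-48951215, minus strand: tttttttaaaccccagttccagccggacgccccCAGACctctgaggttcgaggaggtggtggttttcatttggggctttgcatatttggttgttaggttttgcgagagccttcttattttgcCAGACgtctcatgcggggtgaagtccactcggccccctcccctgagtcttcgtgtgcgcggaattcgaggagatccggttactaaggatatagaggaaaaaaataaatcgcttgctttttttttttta
SMAD6, chr15:66701986-66702235, plus strand: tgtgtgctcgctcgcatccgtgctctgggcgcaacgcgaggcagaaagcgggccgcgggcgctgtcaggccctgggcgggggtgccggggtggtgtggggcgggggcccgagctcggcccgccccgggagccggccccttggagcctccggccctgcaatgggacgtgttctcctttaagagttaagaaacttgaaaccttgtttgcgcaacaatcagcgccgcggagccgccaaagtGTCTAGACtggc
SMAD3, start 5 of 5, chr15:67166281-67166530, plus strand: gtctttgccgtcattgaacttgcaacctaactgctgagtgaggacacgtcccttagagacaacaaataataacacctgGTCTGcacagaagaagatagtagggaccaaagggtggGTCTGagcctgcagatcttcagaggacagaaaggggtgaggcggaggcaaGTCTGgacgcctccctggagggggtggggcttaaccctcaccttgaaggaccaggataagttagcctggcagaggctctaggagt
The SKIL match began 107 bases before the start, those of SMAD7 217 and 128 bases before, and the SMAD6 palindrome 12 bases before. SMAD3 had matches 172, 135 and 85 bases before start 5 and another 8 bases after it, and 3 or more matches were found in 2.86% of all windows. The counts do not separate the starts of a gene. A match of these letters is no evidence of binding, which was not measured.

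For the 3 tested members with the smallest p of the edgeR F-test over the 4 conditions, the genes with the most similar log2 cpm over the 12 libraries were named. SMAD6, which did not pass the filter, was not among those tested. These correlations run over 4 conditions of 3 flasks that share treatment and day, and are given as a description. SMAD3 was most like GPRC5A (Pearson r = 0.98), TBXAS1 (0.98) and ANKRD33B (0.98). GPRC5A, a receptor that retinoic acid induces, went from 44.2 cpm at D1 to 11.5 at D1+ TGF-β and from 86.7 at D20 to 17.0 at D20+ TGF-β. SKIL was most like KLHL42 (0.98), the protease inhibitor SERPINE2 (0.98) and the kinase SIK1 (0.98). SERPINE2 went from 297 to 1528 cpm at D1 and from 276 to 991 at D20. TGIF1 was most like PTPRN (0.95), SEL1L3 (0.95) and the collagen COL15A1 (0.95), which had 10.8, 11.5, 7.94 and 39.9 cpm at D1, D1 with TGF-β, D20 and D20 with TGF-β. Among the members, SKIL and SMAD3 had r = −0.82, and SMAD6 and SMAD3 r = 0.78.

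Genes around the SMADs were taken from fixed lists, which were chosen with earlier results of these data known. The list of TGF-β and SMAD3 targets holds genes that the study had reported as changed in these data, among them IGFBP3, CDKN2B and FN1. The counts of the lists are therefore given as a description. Beside the counts of each list, 13.4% of all tested genes were called in D1+ TGF-β vs D1 and 27.5% in D20+ TGF-β vs D20. It was 36.4% in D20 vs D1 and 34.8% between the treated flasks of both days. Without D1 flask 2, 19.8% of all tested genes were called in D1+ TGF-β vs D1 and 34.6% in D20+ TGF-β vs D20. Without both libraries that stood apart these shares were 27.8% and 36.1%. In each list, the 2 called genes with the smallest adjusted p at D1 and at D20 were checked. Their calls there were kept without D1 flask 2, without D20+ TGF-β flask 3 and without both. Of 14 known targets of TGF-β and SMAD3, 11 rose and 0 fell in D1+ TGF-β vs D1, and 6 rose and 0 fell in D20+ TGF-β vs D20, with median log2 fold changes of 1.20 and 0.26 (−0.02 and 0.01 over all genes). Without D1 flask 2, 13 rose and 0 fell at D1, and 7 rose and 1 fell at D20. Without both libraries that stood apart, 7 rose and 2 fell at D20. CCN2, not called at D20 with all 12 libraries, had 446, 441 and 447 cpm at D20 and 267, 280 and 276 at D20+ TGF-β. IGFBP3, which binds insulin-like growth factors, rose from 22.1 ± 7.96 to 358 ± 67.4 cpm at D1 (adjusted p = 6.32e-08). At D20, LTBP2, a latent TGF-β binding protein family member, rose from 305 ± 10.04 to 1379 ± 119 cpm (1.03e-08) and the CDK inhibitor CDKN2B from 15.3 ± 1.28 to 82.0 ± 18.1 cpm (1.24e-07). Of 6 BMP targets, 3 were tested (ID1, ID2 and ID3) and none was called with TGF-β on either day by edgeR. Without D1 flask 2 and D20+ TGF-β flask 3 together, 1 of these was called lower at D1. ID4, ATOH8 and HEY1 did not pass the filter and were not tested. ATOH8 had 6.70, 15.01 and 6.30 cpm at D1 and 2.13, 2.67 and 3.20 at D1+ TGF-β. At D20 it had 19.1, 22.0 and 22.3 cpm, and at D20+ TGF-β 9.89, 11.1 and 3.82. HEY1 had 0.485, 0.379 and 0.184 cpm at D20 and 7.89, 4.83 and 4.49 at D20+ TGF-β. ID1 had a log2 fold change of −1.53 at D1 (adjusted p = 0.0350), which was −0.55 without D1 flask 2 (adjusted p = 0.203).

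Of 19 genes of SMAD turnover and receptor feedback, 3 rose and 1 fell at D1, where 13.4% of all tested genes were called. At D20, 1 rose and 5 fell, against 27.5% of all called. The medians were 0.11 and −0.04. The ubiquitin ligase NEDD4L, which marks activated SMAD2 and SMAD3 for degradation, fell from 31.7 ± 2.54 to 16.9 ± 0.635 cpm at D1 (a log2 change of −0.90 with a standard error of 0.12, adjusted p = 1.42e-04) and from 52.4 ± 0.155 to 30.1 ± 5.59 cpm at D20 (adjusted p = 8.65e-05). SMURF2, another ligase of the receptors and SMADs, rose at D1, by 0.55 on the log2 scale (adjusted p = 0.00185), and fell from 506 ± 11.3 to 251 ± 42.5 cpm at D20 (adjusted p = 6.61e-06). Its responses differed by −1.56 (adjusted p = 1.79e-05). PMEPA1, which sequesters SMAD2 and SMAD3, rose from 7.82 ± 2.95 to 19.1 ± 1.74 cpm at D1 (adjusted p = 8.14e-04).

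Of 20 nuclear partners of the SMADs, 18 were tested. At D1, 2 rose and 1 fell (median 0.02), where 13.4% of all tested genes were called. At D20, 1 rose and 2 fell (median 0.09), against 27.5% of all called. The transcription factor RUNX1 rose from 79.1 ± 15.2 to 140 ± 2.03 cpm at D1 (adjusted p = 5.66e-04). The deacetylase HDAC1, which SKI, SKIL and TGIF1 bring to DNA, fell from 85.0 ± 3.55 to 67.1 ± 1.07 cpm at D1 (adjusted p = 0.00300) and from 105 ± 1.501 to 71.7 ± 6.13 cpm at D20 (adjusted p = 3.55e-05). ZEB1 fell from 428 ± 9.02 to 272 ± 18.2 cpm at D20 (adjusted p = 9.76e-05). Of 8 tested ligands and receptors of TGF-β, 2 fell at D1 and 4 at D20, and 0 rose, with medians of −0.06 and −0.53. Without D1 flask 2, 3 rose and 2 fell at D1, among the former TGFB2 (0.87, adjusted p = 2.85e-04), and 2 rose and 5 fell at D20. In that setting 19.8% of all tested genes were called at D1 and 34.6% at D20. The receptor ACVRL1 fell from 23.8 ± 5.21 to 7.27 ± 1.03 cpm (adjusted p = 3.86e-05) and the coreceptor TGFBR3 from 32.6 ± 4.96 to 19.1 ± 1.68 cpm (3.80e-04) at D1. The coreceptor ENG fell from 211 ± 5.38 to 107 ± 4.09 cpm (5.11e-06) and the ligand TGFB2 from 71.8 ± 3.76 to 20.1 ± 1.61 cpm (2.22e-05) at D20. Of 7 BMP and activin receptors and SMAD9, 3 were tested, and ACVR1 rose on both days, from 56.2 ± 5.03 to 74.6 ± 1.43 cpm at D1 (adjusted p = 0.00133) and from 68.8 ± 4.16 to 86.8 ± 2.07 cpm at D20 (0.00240). Of the 10 proliferation genes, 0 were called at D1 and 8 rose at D20 with TGF-β, among them BUB1 (8.32 ± 1.47 to 26.3 ± 7.55 cpm, adjusted p = 6.27e-05) and CCNA2 (11.5 ± 0.951 to 30.7 ± 7.03 cpm, adjusted p = 1.13e-04). All 10 fell in D20 vs D1, and all 10 between the treated flasks of D1 and D20.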

How the data were processed

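RNA of 12 flasks of WI-38 cells was sequenced with a directional kit, each library on 4 lanes. Per the labels and methods, the authors checked reads with FastQC, used Trimmomatic for trimming and Rsubread for mapping, to hg19. The authors deposited raw counts per gene and lane, without normalization. They also deposited log2 cpm per gene and lane, as voom writes them, for 9412 genes. The program, annotation and use of strand for counting are not given in the sources used here.

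Lanes were summed per library. Totals were 8674488 to 18286197 counts, and the lowest count of SMAD6 was 14 and of SMAD7 72. edgeR 4.0.16 (R 4.3.3) was run with TMM factors, 1 mean per condition over all 12 libraries, and at least 10 cpm in at least 6 libraries, which left 9490 of 20434 genes with a count. Benjamini-Hochberg adjustment was over the genes tested, with calls under 0.01. Standard errors and 95% intervals are of the log2 fold change. Log2 cpm have a prior count of 2. The code was checked on simulated counts.

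All 10 members were named. Of the other lists, the 2 called genes with the smallest adjusted p in D1+ TGF-β vs D1 and in D20+ TGF-β vs D20 were named, and the 3 genes most correlated with each of the 3 members with the smallest p over the 4 conditions. The members and lists were chosen with earlier results of these data known. The alternatives were DESeq2 1.42.0, limma-voom (limma 3.58.1) on libraries or on 48 lanes, limma on the deposited values, RLE or no composition factors, no gene filter, filterByExpr, only 6 libraries, replicate numbers as a block, and leaving out each library. Protein sequences were not analysed here. An item that the naming rule selects is not reported here.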

Additional observations from a re-analysis of the deposited data

Results flagged for a closer look

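The TGF-β response of TGIF1 differed between the days by 0.91 on the log2 scale (D20 minus D1, edgeR interaction test, adjusted p = 0.00149). It was chosen because the test of the difference itself passed the threshold. The response was 0.13 at D1, where D1 flask 2 (45.0 cpm) lay above all treated flasks, and 1.04 at D20, where all 3 treated flasks were above all untreated ones. Without D1 flask 2 the D1 response was 0.31 (edgeR adjusted p = 0.0122). Groups of 3 flasks were not tested for outlying samples.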

How the results depend on the processing

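Over 23 alternative settings, 1096 values were recomputed, of which 987 kept their direction and side of the threshold, 36 lost and 53 gained a call, and 20 changed sign. The calls of SMAD3, SKIL and TGIF1 in D20+ TGF-β vs D20, of SMAD3 and SKIL in D1+ TGF-β vs D1, of SMAD1 and TGIF1 between the treated flasks of both days and of TGIF1 for the difference of responses held in all that were run. The number of members called in D1+ TGF-β vs D1 was 2, and 5 with the 48 lanes as samples, which repeat the same RNA and are not replicates and called 41.4% of all genes there. Between the treated flasks of both days it was 2, and 4 with lanes as samples (SMAD2 and SKIL added, 60.8% of all genes called) or with no gene filter (SMAD6 and SKIL added, 21.2%). In D20 vs D1 it was 3, 5 with lanes as samples (62.6% of all genes) and 1 with limma on the deposited log2 values (34.9%). For the difference of responses it was 1, and 7 with lanes as samples (39.3% of all genes). It was 2 with DESeq2 (14.4%), no composition factor (12.1%) or no gene filter (6.43%). Leaving out 1 library gave 2 to 4 members in D1+ TGF-β vs D1, 3 to 4 in D20+ TGF-β vs D20, 2 to 3 between the treated flasks, 1 to 5 in D20 vs D1 and 1 to 3 for the difference. Without D1 flask 2 these counts were 4, 4, 3, 5 and 3, where 19.8%, 34.6%, 42.3%, 42.2% and 18.2% of all genes were called. Without D1 flask 2 and D20+ TGF-β flask 3 together, chosen after seeing the data, they were 7, 4, 4, 5 and 4, with 27.8%, 36.1%, 47.3%, 48.9% and 23.9% of all genes called. Where no cause is named, the cause was not tested.

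With replicate numbers as a block, 2 members were called for the difference of responses (SMAD1, adjusted p = 0.00844, was added), and no other call changed. The numbers did not pair the flasks, since deviations of same-numbered flasks correlated at a median of −0.05 (−0.22 to 0.32, 18 pairs) and 5 of 12 libraries correlated best with their own number. The values that changed sign were uncalled in the 12 libraries. They were SKI in D1+ TGF-β vs D1 (−0.000873 with no composition factor, −0.0416 to 0.137 on leaving out 1 library), SKI between the treated flasks (−0.129 to 0.0138 on leaving out 1 library), SMAD1 in D20 vs D1 (−0.0379 with no composition factor, −0.0420 with no gene filter, −0.00335 with filterByExpr, −0.0869 to 0.277 on leaving out libraries), SKIL in D20 vs D1 (−0.00854 without D1 flask 1, to 0.426 without D1 flask 2) and SMAD4 for the difference (−0.00420 with limma-voom, −0.000617 with lanes as samples, −0.00205 with filterByExpr, −0.0961 to 0.0794 without 1 library, −0.112 without D1 flask 2 and D20+ TGF-β flask 3). With no composition factor the median of all genes moved from 0.02 to 0.13 for the difference of responses. At 14 to 29 counts per library in D1+ TGF-β, depth limits the D1 response of SMAD6.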
